A study of Homo sapiens with 63 samples.

Results

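Fractions 13 to 17 of a gradient of HEK293 cells starved of amino acids were compared with fractions 13 to 17 of a gradient of the same cells in log phase. HEK293 is an established human embryonic kidney line. The starved cells had spent 1 h in Earle's balanced salt solution supplemented with MEM vitamins, penicillin and streptomycin, and 10% fetal bovine serum, and the log phase cells had grown in DMEM with 10% fetal bovine serum. Both were treated with cycloheximide, which holds ribosomes on mRNA, for 10 min before lysis, and poly(A)+ RNA of each fraction was sequenced. The block holds 5 fractions of each gradient, that is 10 of the 60 fraction columns and of the 63 samples that the labels describe, chosen by the fraction number and the condition in the column names. The remaining fractions, and a gradient of cells kept without serum for 2 h, are used below only to place this block. Each condition was 1 gradient, so the 5 fractions give a spread along the gradient and not between replicates, and no p-value was computed.

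In such a gradient an mRNA sediments with the ribosomes and proteins it carries, so a change of position reflects how many ribosomes it holds or which complex it is in. Amino acid shortage is known to act on translation by way of mTORC1, whose loss of activity represses mRNAs that begin with a 5′ terminal oligopyrimidine (TOP) tract, through LARP1 and the 4E-BPs. These mRNAs encode ribosomal proteins and translation factors. The other known branch runs through the kinase GCN2, phosphorylation of eIF2 and the transcription factor ATF4, which is translated under stress because of upstream open reading frames and then induces amino acid synthesis, transport and tRNA charging genes. Whether fraction numbers run from light to heavy complexes or the reverse is not stated in the labels, and fractions are therefore named by number alone.

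The TOP tract is visible in the bases around the annotated start. The windows below run from 10 bases before to 20 bases from the RefSeq start (GRCh38.p14), 5′ to 3′ on the gene's strand, and capitals mark an unbroken pyrimidine run that begins with a C exactly at that start and is at least 5 bases long. They were chosen to set TOP mRNAs with different outcomes beside each other. EEF2 (chr19:3985444-3985473, minus strand) and RACK1 (chr5:181243887-181243916, minus strand) were higher in the starved fractions by the size rule given below. NAP1L1 (chr12:76084666-76084695, minus strand) was lower. EEF1A1 (chr6:73521013-73521042, minus strand), RPS6 (chr9:19380217-19380246, minus strand) and RPL3 (chr22:39319604-39319633, minus strand) met neither rule.
EEF2: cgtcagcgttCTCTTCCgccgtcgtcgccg
RACK1: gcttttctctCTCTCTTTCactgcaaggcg
NAP1L1: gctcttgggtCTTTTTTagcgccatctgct
EEF1A1: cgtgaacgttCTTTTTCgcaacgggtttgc
RPS6: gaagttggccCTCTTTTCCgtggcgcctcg
RPL3: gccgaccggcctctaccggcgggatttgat
Runs of 7 to 9 pyrimidines stand at the start of EEF2, RACK1, NAP1L1, EEF1A1 and RPS6, so genes with such a run had all 3 outcomes. At RPL3 the run from the annotated start is 4 bases long and stays in lower case. Such a run stood at the start of 26 of 40 large subunit ribosomal protein genes with a promoter in the RefSeq table (65.0%), 18 of 26 small subunit genes (69.2%) and 14 of 20 other TOP mRNAs (70.0%). Over all 6945 tested genes with a promoter the share was 6.18%, and over the 27305 promoters listed there it was 4.04%. It was 9.17% (40 of 436) among the genes called higher and 3.6% (4 of 111) among those called lower. Most of these 40 were not in the TOP lists: among genes called higher outside those lists the share was 8.82% (38 of 431). A run at an annotated start describes the annotation and not the start used in these cells.

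The values are signal, rescaled so that the genes of each fraction sum to 1000000, and are written as parts per 1000000 (ppm). They are shares of a fraction's RNA, so a higher share can go with more of that mRNA in the cell or with a changed position, and these cannot be told apart here. Before rescaling, the deposited totals of fractions 13 to 17 lay between 11270466 and 55162375 in log phase and between 5250715 and 11177492 after starvation. No source used here gives the read depth of a library. Of 11074 genes, 8302 had a mean of 5 or more over the 10 fractions and were compared, while 2772 did not. Differences are log2(starved + 1) minus log2(log phase + 1), averaged over the 5 matched fractions, and ± gives the SD over those 5 fractions. Neighbouring fractions of one gradient correlated on the log2 scale at r between 0.977 and 0.986 across genes, and fractions 13 and 17 at 0.869 in log phase and 0.902 after starvation. Starved fractions 14 to 17 were most like the log phase fraction of the same number (r from 0.925 to 0.939), whereas starved fraction 13 was most like log phase fraction 12 (0.932, against 0.926 with fraction 13). The marker genes GAPDH, ACTB, NEFL, NEFM, VIM, KRT8 and KRT18 of the HEK293 list were all detected in this block, and SOX2 was below the minimum mean.

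A gene was called higher when its mean difference was at least 1 on the log2 scale (2-fold) and all 5 starved values lay above all 5 log phase values, and lower for the reverse. By this rule 550 genes were higher (6.62% of the 8302 tested) and 131 were lower (1.58%). The median difference of all tested genes was 0.15, with quartiles of -0.22 and 0.55, and by fraction it ran from -0.21 in fraction 13 through 0.00, 0.42 and 0.22 to 0.36 in fraction 17. The genes called higher took 5.56%, 5.47%, 7.03%, 7.05% and 6.86% of the signal of starved fractions 13 to 17, and 1.74%, 1.82%, 1.99%, 2.49% and 2.98% in log phase. The genes called lower took between 0.41% and 0.74% of the starved fractions and between 1.14% and 1.56% of the log phase fractions. Across settings, the balance of the calls rests on how the fractions are put on one scale. With each fraction centred on its median gene there were 439 higher and 292 lower. Scaled on the spike-in RNAs there were 96 higher and 163 lower, and on the deposited signal without rescaling, where the median gene lay at -1.40, there were 0 higher and 2084 lower. With starved fractions 12 to 16 set against log phase fractions 13 to 17, there were 245 higher and 266 lower. Of 58 called genes picked by the naming rule, 53 kept their call with centring, 33 with spike-in scaling and 21 on the deposited signal. A change of scale moves all genes of a fraction together, so each group below is read beside the median of all genes. Counts of calls in a list are to be set against 6.62% higher and 1.58% lower over all tested genes. On the deposited signal the median of every list summarised here except the HEK293 markers was below 0. At the edge of the rule, the smallest differences called were 1.002 and -1.001, and the largest without overlap that were not called were 0.99998 and -0.9997.

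**Figure D1:**
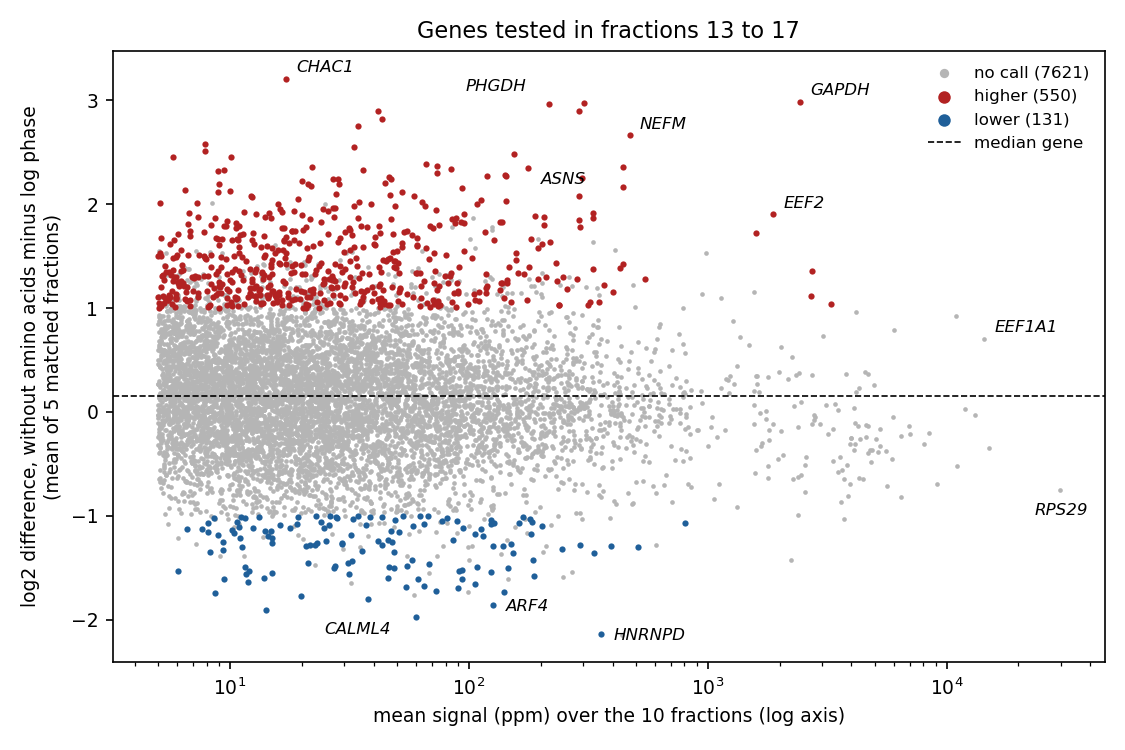
Mean signal in ppm over the 10 fractions (x, log axis) against the mean log2 difference, starved minus log phase (y), for the 8302 genes tested. The 550 genes called higher and 131 called lower are coloured, and the dashed line is the median gene at 0.15; calls in both directions occur at low and at high signal.

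Enzymes that make serine, one-carbon units and asparagine were among the genes furthest above log phase. PHGDH, the first enzyme of serine synthesis (chr1:119711934-119744215), had 227, 296, 383, 464 and 555 ppm in starved fractions 13 to 17 and 30.4, 34.6, 42.2, 53.6 and 85.5 in log phase. Every starved value was above every log phase value, and the difference was 2.97 ± 0.19, a fold of 7.84. SHMT2, the mitochondrial enzyme that turns serine into glycine, had 219, 225, 294, 298 and 281 ppm against 34.4, 39.5, 43.4, 55.4 and 61.6, a difference of 2.48 ± 0.22. ASNS, asparagine synthetase, had 159, 220, 310, 381 and 416 ppm against 30.7, 46.3, 54.1, 65.6 and 89.9, a difference of 2.35 ± 0.15. In both genes, as in PHGDH, signal climbed with the fraction number in log phase, and the gap between the gradients was held across the block. MTHFD2 (1.53 ± 0.36) of mitochondrial folate metabolism and PYCR1 (1.77 ± 0.62) of proline synthesis were also called higher. That made 5 of 14 tested members higher and 0 lower, with a list median of 0.90 (3 higher with spike-in scaling). The list was not uniform: PSAT1, the enzyme after PHGDH, stood at -0.20 ± 0.70, PSPH at 0.57 ± 0.43 and the aspartate aminotransferase GOT1 at -0.87.

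Targets of ATF4 lay above 0 in 16 of 16 tested members, with a list median of 0.82, and 4 were called higher and 0 lower. That count was also 4 with spike-in scaling, and it was 7 without fraction 13. It was 3 with a pseudocount of 5 in place of the added 1, and 1 among genes with a mean of 20 or more. CHAC1, which degrades glutathione, had 20.4, 24.1, 33.9, 34.9 and 45.6 ppm after starvation against 3.05, 3.16, 3.04, 2.33 and 1.04 in log phase. The gradients moved apart toward fraction 17, from a difference of 2.40 in fraction 13 to 4.52 in fraction 17, with a mean of 3.21 ± 0.84. All log phase values of CHAC1 were below the minimum mean of 5, so it was tested only because of its starved values. The widening includes a log phase fall to 1.04 ppm, about the size of the added 1, so its size is uncertain. DDIT4, an inhibitor of mTORC1 signalling, had 27.4, 38.9, 68.8, 89.5 and 90.2 ppm against 6.66, 9.93, 14.7, 19.1 and 23.1, a difference of 2.00 ± 0.15. The transcription factor gene JDP2 (1.59 ± 0.54) and the growth factor gene VEGFA (1.37 ± 0.55) were the other members called higher. NUPR1, a stress-induced nuclear protein gene, differed by 1.75 ± 0.38 and the pseudokinase gene TRIB3 by 1.03 ± 0.44, but their 5 values overlapped between the gradients. In fractions 18 to 22 the list median was 1.43, where the median gene stood at 0.23. It was 0.03 in fractions 8 to 12 and -0.12 in fractions 3 to 7, where the median gene stood at -0.85 and -0.90.

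ATF4 itself overlapped between the gradients. It had 3012, 2311, 2260, 1644 and 1196 ppm in starved fractions 13 to 17 and 1961, 1408, 874, 591 and 390 in log phase. Starved values were higher in each matched fraction, by 0.62 in fraction 13 and 1.61 in fraction 17, with a mean of 1.16 ± 0.46, while signal fell along the block in both gradients. DDIT3, which encodes the stress factor CHOP, showed the same layout, with 39.1, 37.4, 24.1, 13.9 and 12.7 ppm against 17.2, 11.0, 7.94, 5.57 and 3.95, and a difference of 1.39 ± 0.22 with overlap. Of 18 mRNAs known to be regulated by upstream open reading frames, EPRS (1.47 ± 0.20), a synthetase for glutamate and proline, and PPP1R15A (1.16 ± 0.61), which directs the phosphatase of eIF2, were called higher. No member was called lower, and the list median of 0.13 was close to that of all genes. With spike-in scaling 0 were called, and without fraction 13 there were 3 higher and 1 lower. ATF5, a factor related to ATF4, stood at -0.72 ± 0.45 and the polyamine enzyme gene AMD1 at -0.23 ± 0.97. PPP1R15A did not meet the rule when fractions were centred on the median gene (0.99).

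Amino acid transporters and tRNA synthetases were further groups tied to amino acid supply. SLC7A11, the cystine carrier, was called higher with 6.76, 13.6, 16.6, 10.1 and 9.37 ppm against 2.50, 1.02, 1.88, 2.26 and 1.10, a difference of 2.14 ± 0.69 at a low level. SLC1A5 (1.22 ± 0.27), a glutamine carrier, and SLC43A1 (1.04 ± 0.32), a carrier of large neutral amino acids, were the other transporters called higher, 3 of 12 tested, with a median of 0.93 and 0 lower. The count was 7 without fraction 13 and 1 with spike-in scaling. A further 4 of the 16 listed transporters were below the minimum mean and were not compared. SLC7A5, the light chain of the leucine carrier, differed by 1.78 ± 0.59 and its heavy chain SLC3A2 by 1.12 ± 0.14, both with overlapping values. Among 22 cytosolic aminoacyl-tRNA synthetases, AARS, CARS, EPRS, QARS and SARS were called higher and 0 lower, and the list median was 0.67, with 2 called under spike-in scaling. SARS, which charges tRNA with serine, had 160, 157, 178, 196 and 207 ppm against 42.1, 45.9, 48.6, 57.3 and 77.7, a difference of 1.73 ± 0.20. With spike-in scaling EPRS (1.13) and, of the serine and asparagine enzymes, ASNS (2.00) overlapped log phase. YARS, the most abundant synthetase here, stood at 0.27 ± 0.21.

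GAPDH, a glycolytic enzyme, was the most abundant of the 12 genes with the largest differences among those with a mean of 20 ppm or more. It had 3179, 3718, 4658, 4966 and 4853 ppm in starved fractions 13 to 17 and 307, 395, 476, 678 and 1074 in log phase (chr12:6534517-6538371). The lowest starved value was above the highest log phase value, and the difference was 2.99 ± 0.49, a fold of 7.93. GAPDH, like the ribosomal protein genes and EEF1A1, has many near-identical pseudogene copies, so reads may have been split among them. HK1 (1.46 ± 0.58), PFKL (1.46 ± 0.37) and PFKM (1.02 ± 0.17), which act in the early steps of glycolysis, were also called higher, 4 of 15 tested with a list median of 1.02 and 0 lower. The count was 1 with spike-in scaling and 7 without fraction 17. LDHB, a lactate dehydrogenase subunit, differed by 1.09 ± 0.61 and PGK1 by 1.21 ± 0.18, and both overlapped.

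VIM, the intermediate filament protein vimentin, differed almost as much as GAPDH. Its values were 430, 402, 635, 639 and 572 ppm against 39.0, 50.4, 62.4, 89.6 and 111, a difference of 2.98 ± 0.43. NEFM, a neurofilament protein known to be expressed in HEK293 cells, had 548, 509, 1118, 1017 and 897 ppm against 115, 87.5, 119, 138 and 162, a difference of 2.67 ± 0.38. KRT18 (2.26 ± 0.19), KRT8 (1.67 ± 0.43) and NEFL (1.06 ± 0.31) were called higher too, so 6 of the 7 tested HEK293 markers were higher (3 with spike-in scaling), and the seventh, ACTB, stood at 0.30 ± 0.44. GAPDH is counted in the glycolysis list as well and VIM among the other TOP mRNAs. The marker list therefore recounts genes given elsewhere and does not measure cell identity. Of 15 actin and tubulin mRNAs, ACTG1 (1.72 ± 0.90), TUBA1C (1.87 ± 0.37) and TUBG1 (1.59 ± 0.35) were called higher and 0 lower, with a median of 0.82. With spike-in scaling 0 of them were called, ACTG1 (1.37) and TUBA1C (1.51) included, and without fraction 13 or 17 there were 5. ACTG1 had 2187, 1964, 2651, 2610 and 2293 ppm against 307, 496, 644, 1055 and 1687, so its gap narrowed from 2.83 in fraction 13 to 0.44 in fraction 17. TUBB, a tubulin of the same list, stood at -0.69 ± 0.23.

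**Figure D2:**
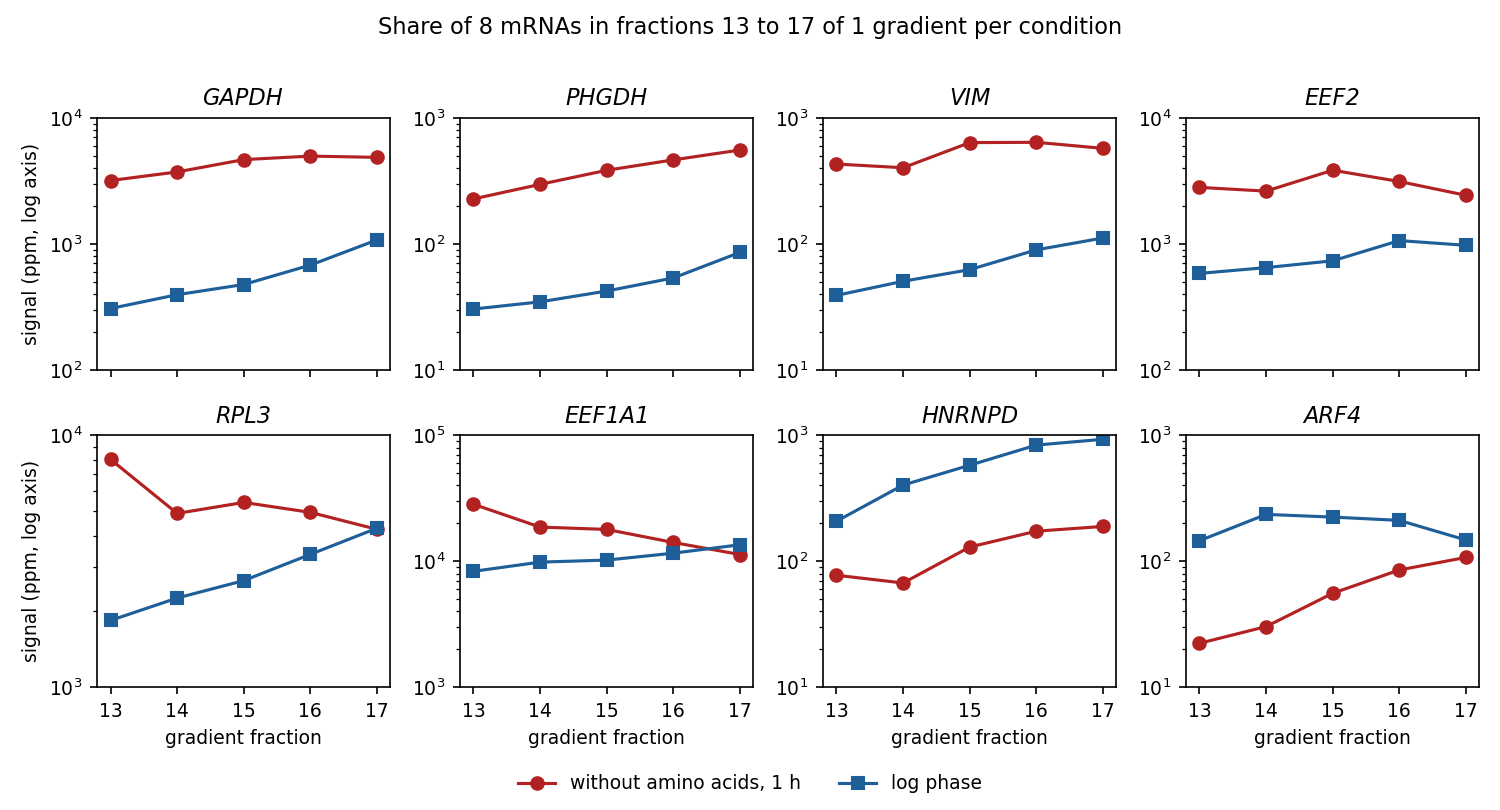
Signal in ppm (y, log axis) in fractions 13 to 17 (x) of the starved gradient (circles) and the log phase gradient (squares) for 8 genes, 1 library per point. GAPDH, PHGDH, VIM and EEF2 lie above log phase in every fraction, HNRNPD and ARF4 below, and RPL3 and EEF1A1 run down the block after starvation and up it in log phase.

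Chaperones were called higher in the cytosol and in the endoplasmic reticulum (ER). CCT2, CCT3 and CCT5 of the TRiC chaperonin, which folds actin and tubulin, were called higher, 3 of 8 tested with a median of 1.04 and 0 lower, and the count was 1 with spike-in scaling and 5 without fraction 17. CCT3 had 691, 676, 761, 742 and 727 ppm against 134, 139, 140, 175 and 227, a difference of 2.16 ± 0.30, while the subunit TCP1 stood at -0.48 ± 0.63. Of 17 ER chaperones and folding enzymes, CALR, CANX, CRELD2, HSP90B1, P4HB, PDIA3 and PDIA6 were called higher and 0 lower, with a median of 0.83, but 1 with spike-in scaling. P4HB, a protein disulfide isomerase, had 160, 173, 285, 299 and 276 ppm against 35.9, 38.4, 45.0, 54.5 and 67.5, a difference of 2.27 ± 0.26. HSPA5, the main ER Hsp70, did not pass at 0.50 ± 0.18. Among 16 heat shock chaperones, HSP90AB1 (1.37 ± 0.45) and HSPD1 (1.30 ± 0.49) were called higher and 0 lower, and the list median was 0.33, with 9 members above the median gene. With spike-in scaling the median was -0.02, with 0 higher and 1 lower, and without fraction 15, 16 or 17 there was 1 lower. HSP90AA1, the stress-inducible Hsp90, stood at -0.19 ± 0.19.

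Genes of lysosomal proteins were called higher in 7 of 29 tested members of the autophagy and lysosome list, with 0 lower and a median of 0.49, or 4 higher and 1 lower with spike-in scaling. Among these were CTSA, CTSD, GLA, GRN, HEXA and PSAP, which encode lysosomal enzymes and their cofactors. GRN, progranulin, had 41.2, 46.5, 85.5, 96.2 and 102 ppm against 6.85, 5.41, 9.94, 10.4 and 11.1, a difference of 2.90 ± 0.28. PSAP, the precursor of the saposins, differed by 2.39 ± 0.59 and HEXA, a lysosomal hexosaminidase subunit, by 2.27 ± 0.36. Autophagy genes of the list did not pass, with MAP1LC3B at -0.05 ± 0.52, GABARAP at 0.24 ± 0.36 and the receptor SQSTM1 at 0.18 ± 0.28.

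Nuclear-encoded mitochondrial genes included single large differences, while most members of the lists had no call. IDH2, mitochondrial isocitrate dehydrogenase, had 42.3, 61.4, 83.6, 98.7 and 97.1 ppm against 4.96, 6.99, 10.8, 11.7 and 16.6, a difference of 2.82 ± 0.20. ALDH2, mitochondrial aldehyde dehydrogenase, differed by 2.75 ± 0.52. ATP5A1, ATP5B, ATP5C1, UQCRC1 and UQCRC2, subunits of ATP synthase and of complex III, were called higher, 5 of 35 with 0 lower (1 higher with spike-in scaling), and UQCRC2 differed by 2.15 ± 0.20. The median of that list, 0.29 (-0.07 with spike-in scaling), was near the median gene. NDUFA10 (1.75 ± 0.23) was the 1 of 38 complex I subunits called higher, with a list median of 0.22, or -0.13 with spike-in scaling, and without fraction 13 or 17 there were 4. Of 78 mitochondrial ribosomal proteins, MRPL10 was called higher at 1.02 ± 0.19, and without fraction 13, 14 or 15 it missed the rule, at 0.99, 1.00 and 0.98. No member of either of these lists was called lower, and their counts higher stood beside 6.62% of all tested genes called higher.

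Other genes among those 12 were IMPDH2, EIF3CL and PRKCSH. IMPDH2, the rate-limiting enzyme of guanine nucleotide synthesis and a TOP mRNA, had 493, 457, 524, 541 and 543 ppm against 59.9, 58.3, 56.5, 73.9 and 97.4, a difference of 2.90 ± 0.27. PRKCSH, the beta subunit of ER glucosidase II, differed by 2.36 ± 0.15. EIF3CL differed by 2.56 ± 0.69, but it is a near-identical copy of EIF3C (2.25 ± 0.23) and reads of the pair may have been split, so its value is uncertain. EIF3C, EIF3D (1.80 ± 0.33) and EIF3I (1.84 ± 0.06), subunits of the initiation factor eIF3, were the 3 of 34 initiation factors outside the TOP list called higher. The share over all tested genes was 6.62%. EIF3J, a loosely bound subunit of the same factor, was the 1 called lower, at -1.07 ± 0.50, and it missed the rule without fraction 14 (-0.88). The median of that list was -0.14, and its counts were 1 higher and 0 lower with spike-in scaling and 3 and 3 without fraction 13.

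Ribosomal protein mRNAs, the largest class in the block, did not meet the rule as a group. Of 49 large subunit genes 1 was higher and 0 lower, with a median of -0.21, and of 33 small subunit genes 0 were higher and 0 lower, with a median of -0.37. With spike-in scaling 1 large and 3 small subunit genes were lower and 0 higher, and without fraction 17 there were 3 large subunit genes higher. The single exception was RPL8, with 4358, 3971, 3461, 3269 and 3358 ppm against 1545, 1521, 1483, 1692 and 2326, a difference of 1.12 ± 0.39 that missed the rule when fractions were centred on the median gene (0.95). The list medians hid a change along the block. For the large subunit genes the median difference went from 0.16 and 0.13 in fractions 13 and 14 to -0.39, -0.39 and -0.50 in fractions 15 to 17. Summed, these genes took 27.7%, 24.5%, 18.6%, 17.6% and 17.4% of starved fractions 13 to 17, and 24.0%, 22.0%, 22.6%, 22.0% and 24.1% in log phase, so the gradients crossed between fractions 14 and 15. The small subunit genes took 19.8%, 17.8%, 12.6%, 11.5% and 11.2% after starvation and 21.1%, 20.3%, 19.5%, 17.1% and 16.9% in log phase. That sum was below log phase in every fraction, but it includes RPS29, the most abundant member, whose values are given below. By gene, the small subunit median was near 0 in fractions 13 and 14 (-0.01 and -0.04). It was -0.52, -0.58 and -0.55 in fractions 15 to 17, a break at the same place as in the large subunit.

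**Figure D3:**
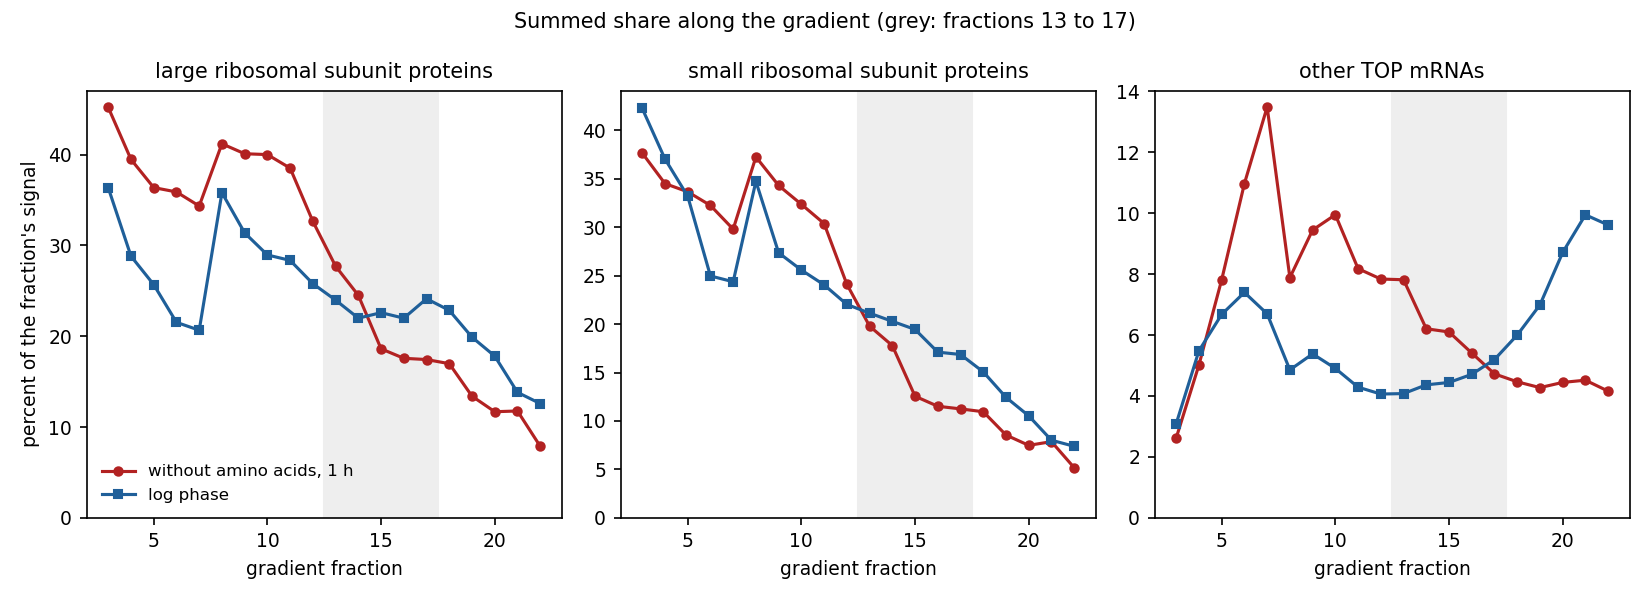
Percent of each fraction's signal (y) taken by large subunit ribosomal protein genes, small subunit genes and other TOP mRNAs in fractions 3 to 22 (x) of the starved (circles) and log phase (squares) gradients; grey marks fractions 13 to 17. Other TOP mRNAs fall from 7.81% to 4.73% across the grey block after starvation and climb from 4.08% to 5.20% in log phase.

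Single ribosomal protein genes differed in their slopes along the block. The median slope of large subunit genes, fractions 16 and 17 minus 13 and 14 (log2), was 0.16 in log phase and -0.59 after starvation. For small subunit genes it was -0.01 and -0.63, so the median gene there was flat in log phase. RPL3 had 8027, 4899, 5415, 4946 and 4235 ppm after starvation and 1843, 2261, 2651, 3369 and 4279 in log phase. It was thus above log phase by 2.12 in fraction 13 and level with it (-0.02) in fraction 17, with a mean of 0.96 ± 0.79 and overlap. RPL4 (0.37 ± 0.56) ran from 1.14 in fraction 13 to -0.32 in fraction 17, and RPS6 (0.36 ± 0.65) from 1.16 to -0.45. RPS29, the most abundant mRNA named here, had 31995, 30925, 17979, 14820 and 12438 ppm against 53750, 53337, 42341, 25555 and 14410, a difference of -0.75 ± 0.36 with overlap. Its values were lower after starvation in each fraction and fell along the block in both gradients, unlike those of RPL3. RPL41, which encodes the shortest ribosomal protein, stood at 0.26 ± 0.39.

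The other TOP mRNAs, which encode elongation factors and other non-ribosomal proteins, held most of the calls among TOP mRNAs. EEF1D, EEF1G, EEF2, HSPA8, IMPDH2, RACK1 and VIM were called higher and NAP1L1 lower, 7 and 1 of 30 tested, with a median of 0.45, and 3 and 1 with spike-in scaling. By fraction that median was 1.26, 0.71, 0.60, 0.28 and 0.03, so it stood above all genes in fractions 13 to 16 and below the 0.36 of all genes in fraction 17. EEF2, the ribosome translocase, had 2805, 2619, 3837, 3123 and 2427 ppm against 583, 647, 733, 1061 and 973, a difference of 1.91 ± 0.46. RACK1, a scaffold protein of the small subunit, had 4205, 3852, 3958, 3794 and 3573 ppm against 1029, 1250, 1443, 1738 and 2396, a difference of 1.36 ± 0.55 that shrank from 2.03 to 0.58 along the block. The tracts printed above for EEF2 and RACK1 have 7 and 9 bases. Not all 7 genes called higher had such a run: from the annotated start it was 0 bases at EEF1G and VIM and 3 at HSPA8. EEF1A1, which brings aminoacyl-tRNA to the ribosome and has the same tract length as EEF2, overlapped: it had 28360, 18687, 17907, 14112 and 11320 ppm against 8329, 9854, 10226, 11603 and 13533, a difference of 0.70 ± 0.76.

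NAP1L1, a histone chaperone gene with a TOP tract, was the exception in direction. It had 822, 464, 568, 461 and 341 ppm after starvation against 926, 1243, 1202, 1160 and 879 in log phase, a difference of -1.07 ± 0.52. The gradients were close in fraction 13 (-0.17) and apart in the other fractions, and the rule was missed without fraction 14 (-0.99) and, through overlap, when fractions were centred on the median gene (-1.24). TPT1 (0.37 ± 0.58), a small TOP mRNA, and HNRNPA1 (0.02 ± 0.79) met neither rule. In fractions 18 to 22 EEF2 stood at -0.60, RACK1 at -0.96, EEF1A1 at -1.57 and RPL3 at -0.83, and in fractions 8 to 12 at 2.46, 1.98, 1.63 and 1.95. Before and after the block these TOP mRNAs thus had opposite signs, with fractions 13 to 17 between them. In the block HSPA8, the constitutive Hsp70, differed by 1.16 ± 0.41 and missed the rule when fractions were centred on the median gene (0.99).

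Among the genes called lower, HNRNPD differed most. HNRNPD encodes AUF1, a protein that binds AU-rich elements (chr4:82352498-82373991), and had 77.5, 67.3, 130, 173 and 189 ppm after starvation against 208, 403, 579, 836 and 929 in log phase. No values overlapped, and the difference was -2.14 ± 0.43, a fold of 4.39 lower. ARF4, a small GTPase of the Golgi, had 22.4, 30.3, 55.8, 85.4 and 107 ppm against 146, 236, 224, 211 and 148, a difference of -1.86 ± 1.01. The gap in ARF4 closed from -2.65 in fraction 13 to -0.46 in fraction 17. CALML4, a calmodulin-like protein gene, kept an even gap, with 23.1, 23.2, 29.5, 21.0 and 22.8 ppm against 95.8, 99.5, 108, 96.1 and 83.8, a difference of -1.98 ± 0.14.

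The other 9 genes with the largest negative differences at a mean of 20 ppm or more were CHORDC1, PPP2CA, RAB14, TTC4, SMNDC1, PHF23, RAB1A, TERF2IP and LTV1. RAB14 (-1.73 ± 0.35) and RAB1A (-1.66 ± 0.69) are, like ARF4, small GTPases of membrane traffic. CHORDC1 (-1.80 ± 0.36) and TTC4 (-1.69 ± 0.66) encode Hsp90 cochaperones. PPP2CA, the catalytic subunit of protein phosphatase 2A, had 36.1, 37.4, 72.4, 90.4 and 103 ppm against 137, 210, 224, 263 and 232, a difference of -1.73 ± 0.48. SMNDC1 (-1.69 ± 0.52) encodes a splicing factor, PHF23 (-1.67 ± 0.21) a PHD finger protein, TERF2IP (-1.61 ± 0.32) a telomere protein and LTV1 (-1.61 ± 0.40) a factor of small subunit assembly. In each of these 9 genes all 5 starved values lay below all 5 log phase values. Against starved fractions 14 to 18, the values of HNRNPD (-1.78), LTV1 (-1.40), PHF23 (-1.28), PPP2CA (-1.30), RAB1A (-1.24) and TERF2IP (-1.38) overlapped log phase. With spike-in scaling those of HNRNPD (-2.49), PHF23 (-2.01), PPP2CA (-2.08) and RAB14 (-2.07) overlapped.

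Splicing and RNA-binding protein genes lay below the median gene. The list of 13 SR splicing factors had a median of -0.70, the lowest of the lists summarised, with 11 members below 0 and 1, TRA2B, called lower. TRA2B had 120, 138, 177, 184 and 227 ppm against 265, 352, 402, 498 and 570, an even difference of -1.28 ± 0.12. With spike-in scaling TRA2B overlapped (-1.64) and no SR gene was called, whereas centring gave 4 lower and leaving out fraction 13, 15 or 17 gave 2. SRSF3 (-0.84 ± 0.18) and SRSF7 (-1.02 ± 0.09) had even differences too but overlapped, since their signal climbed along the block in both gradients. Of 19 hnRNP genes other than HNRNPA1, HNRNPD and HNRNPA3 (-1.36 ± 0.55) were called lower and 0 higher, with a median of -0.49. The number lower was 6 with centring or without fraction 13, 5 without fraction 17 and 0 with spike-in scaling. Of 11 CLK kinases and LUC7-like factors, CLK4 was called lower at -1.16 ± 0.27 and 0 were higher, with a median of -0.38, and 2 were lower with centring or spike-in scaling.

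Ribosome assembly factors were called lower in 5 of 45 cases, namely LTV1, NOP16 (-1.27 ± 0.43), NOP2 (-1.34 ± 0.36), PNO1 (-1.53 ± 0.42) and WDR43 (-1.01 ± 0.25), with 0 higher and a median of -0.20. The number lower was 11 with centring, 9 without fraction 13 and 8 without fraction 17. NOP2, an rRNA methyltransferase, had 13.9, 15.0, 25.1, 23.9 and 22.9 ppm against 46.6, 46.2, 42.8, 59.7 and 61.7. FBL, the methyltransferase fibrillarin and the most abundant member, stood at -0.44 ± 0.25. C2H2 zinc finger genes had 5 of 209 tested members lower (ZKSCAN3, ZNF35, ZNF526, ZNF57 and ZNF668), 0 higher and a median of -0.14, beside 1.58% of all genes lower. At a mean of 20 or more 0 were called, and the number lower ranged from 3 without fraction 14 to 8 without fraction 13 or 17. A further 191 zinc finger genes of the list were below the minimum mean and were not compared. The most extreme was ZNF668 at -1.53 ± 0.50.

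Cell cycle and proteasome genes had a few calls in both directions, beside 6.62% of all tested genes higher and 1.58% lower. Counts this small do not set these lists apart from all genes. Of 38 S phase genes, CDT1 (1.86 ± 0.28), which loads the replicative helicase, and MCM7 (1.24 ± 0.19), a subunit of that helicase, were called higher, and CCNE1, cyclin E1, at the edge of the rule, and SLBP (-1.29 ± 0.58), which binds histone mRNA, lower, with a median of -0.07. Spike-in scaling left 1 higher and 0 lower in that list, and without fraction 14 there was 1 lower. PCNA, the sliding clamp of DNA polymerase, had 55.0, 90.3, 131, 169 and 273 ppm against 177, 286, 392, 517 and 622, a difference of -1.54 ± 0.20 in which the only overlap was between starved fraction 17 and log phase fraction 13. Of 35 mitotic genes, AURKB was called lower at -1.01 ± 0.23 and 0 higher, with a median of -0.22, and AURKB missed the rule without fraction 13 (-0.96) or 14 (-0.95). The number of mitotic genes lower was 6 with centring, 0 with spike-in scaling, 5 without fraction 13, 0 without fraction 14, 2 without fraction 16 and 3 without fraction 17. Of 43 proteasome subunits, PSMD4 (1.67 ± 0.15), a ubiquitin receptor, was called higher and PSMD7 (-1.58 ± 0.56) and PSME3 (-1.32 ± 0.83) lower, with a median of 0.14, or -0.21 with spike-in scaling. Spike-in scaling left 0 higher and 1 lower there, and without fraction 13 or 17 there were 4 higher.

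Components of the mTORC1 pathway were mostly near the median gene, with a list median of 0.04 over 33 tested, or -0.26 with spike-in scaling. TSC2, which restrains mTORC1, had 14.1, 18.7, 31.5, 31.6 and 27.2 ppm against 10.5, 8.96, 7.60, 11.7 and 8.45 and was called higher at 1.25 ± 0.59, a call lost with spike-in scaling (0.92). RPS6KB1, the S6 kinase downstream of mTORC1, had 38.2, 32.9, 69.2, 74.2 and 59.3 ppm against 93.3, 112, 110, 124 and 96.5 and was called lower at -1.02 ± 0.47. That call was lost without fraction 13 (-0.96) or 14 (-0.84) and, through overlap, with spike-in scaling (-1.37). A pseudocount of 5 also ended the calls of TSC2 (0.998) and RPS6KB1 (-0.96). EIF4EBP1, a repressor of cap-dependent initiation, stood above log phase in every fraction at 0.75 ± 0.31, short of the size rule, and LARP1, the repressor of TOP mRNAs, stood at 0.70 ± 0.73.

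Of 18 immediate early genes, DUSP5 (2.32 ± 0.23), an ERK phosphatase, and JUND (1.82 ± 0.40), an AP-1 subunit, were called higher and 0 lower, with a median of 0.36. MYC stood at 0.05 ± 0.26, JUN at -0.15 ± 0.35 and EGR1 at 1.37 ± 0.70 with overlap. Of 26 cholesterol and fatty acid synthesis genes, TM7SF2, a sterol reductase, was called higher at 1.21 ± 0.18 and 0 lower, with a median of 0.36. That stood beside 6.62% of all tested genes higher, and the count was 0 with spike-in scaling and 2 without fraction 13. Lists with 0 calls in either direction were ferritin, iron and polyamine genes (13 tested, median 0.01), replication histone mRNAs found with poly(A) (6 of 19 tested, 0.34), replacement histone variants (9 tested, -0.12, with 1 lower without fraction 13 and 2 without fraction 17), very long coding sequences (18 of 41 tested, 0.49) and very short non-ribosomal coding sequences (51 tested, 0.12). Within the first of these, FTH1 (-0.68 ± 0.19) and FTL (-0.46 ± 0.08), the ferritin chains, lay below log phase in all 5 fractions without overlap but short of a 2-fold difference. The median of the very long coding sequences was -0.01 at a mean of 20 or more. With spike-in scaling 1 of the very long coding sequences was called lower. The MTRNR2L genes, near-copies of mitochondrial rRNA, had 2 of 5 members tested and no call.

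**Figure D4:**
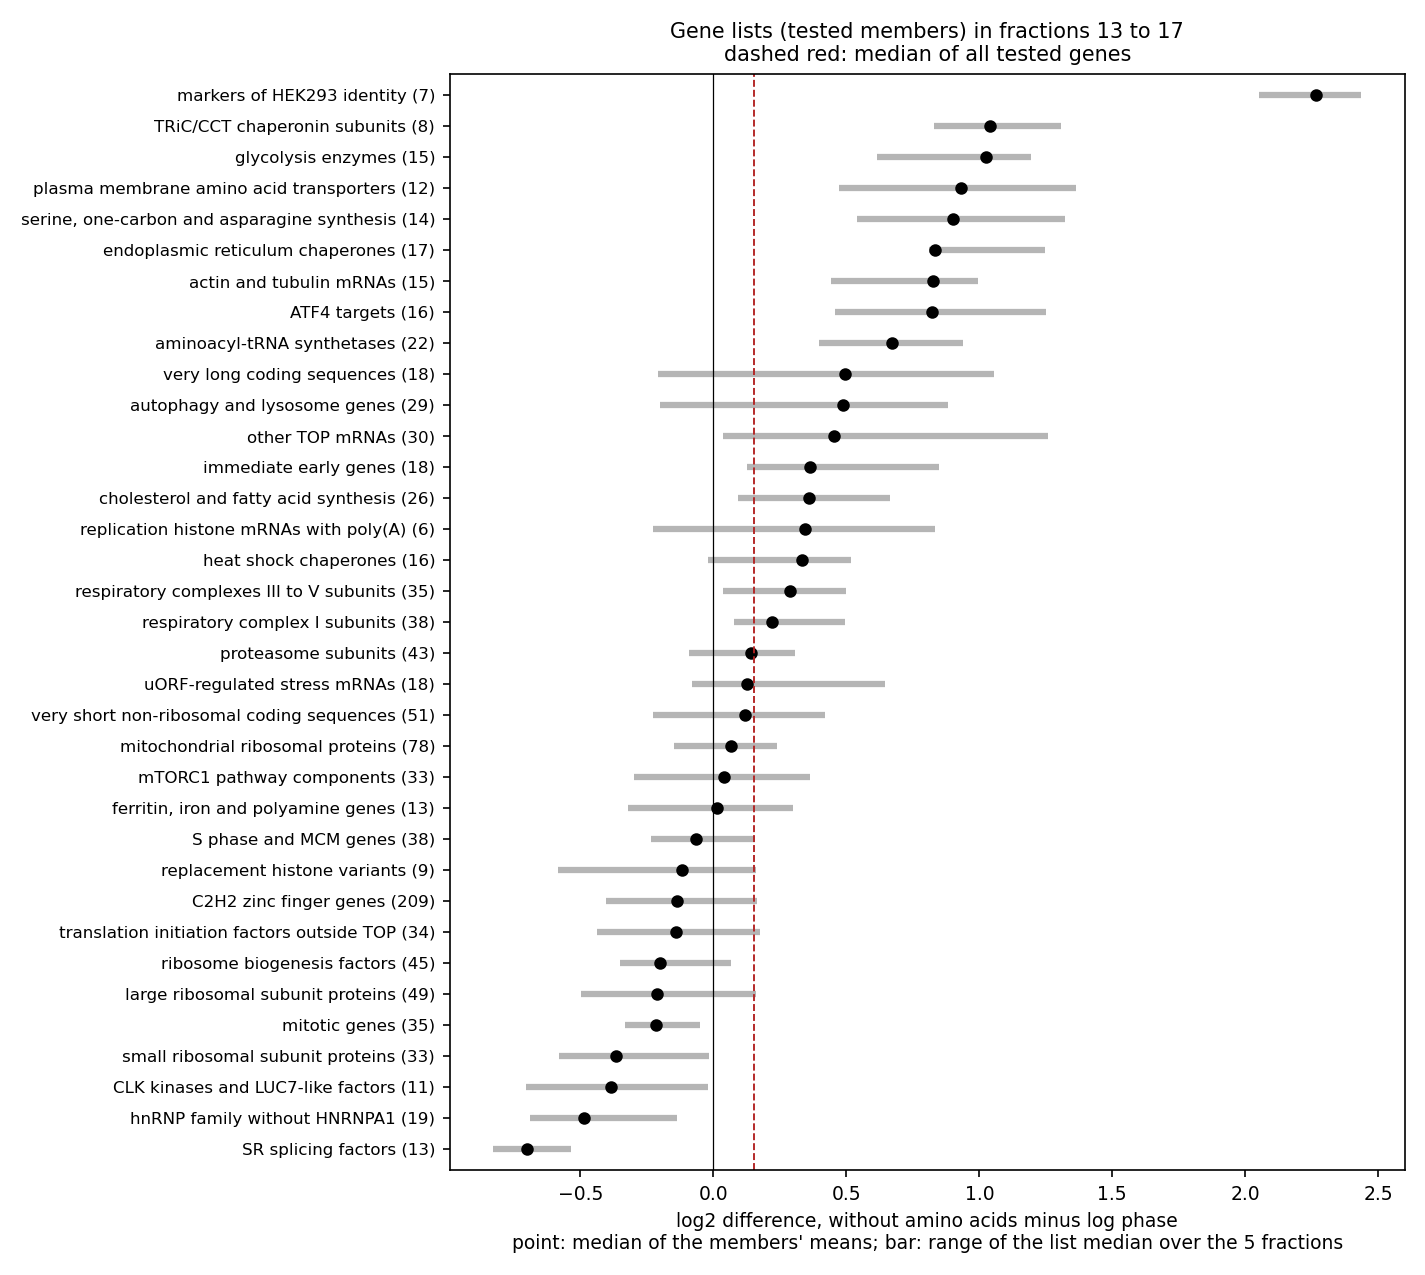
Median log2 difference, starved minus log phase (x), of each gene list with at least 5 tested members (number in parentheses); points are the medians of the members' 5-fraction means and bars the range of the list median over fractions 13 to 17. The HEK293 marker list, which shares GAPDH and VIM with other lists, stands at 2.26, TRiC at 1.04 and SR splicing factors at -0.70, against 0.15 for all genes (dashed line).

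The position of an mRNA in log phase went with the calls in the block. Genes were divided into 10 equal bins by their log phase signal in fractions 18 to 22 minus that in fractions 8 to 12 (log2). In the bin most weighted to fractions 8 to 12, 7 of 831 genes (0.842%) were called higher and 1 (0.12%) lower. In the bin most weighted to fractions 18 to 22, 97 of 831 (11.7%) were higher and 3 (0.361%) lower, while lower calls were most frequent in bin 5, at 26 of 830 (3.13%). The bins use log phase libraries, though not those of the block, and both gradients' fractions are shares, so these counts are a description.

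**Figure D5:**
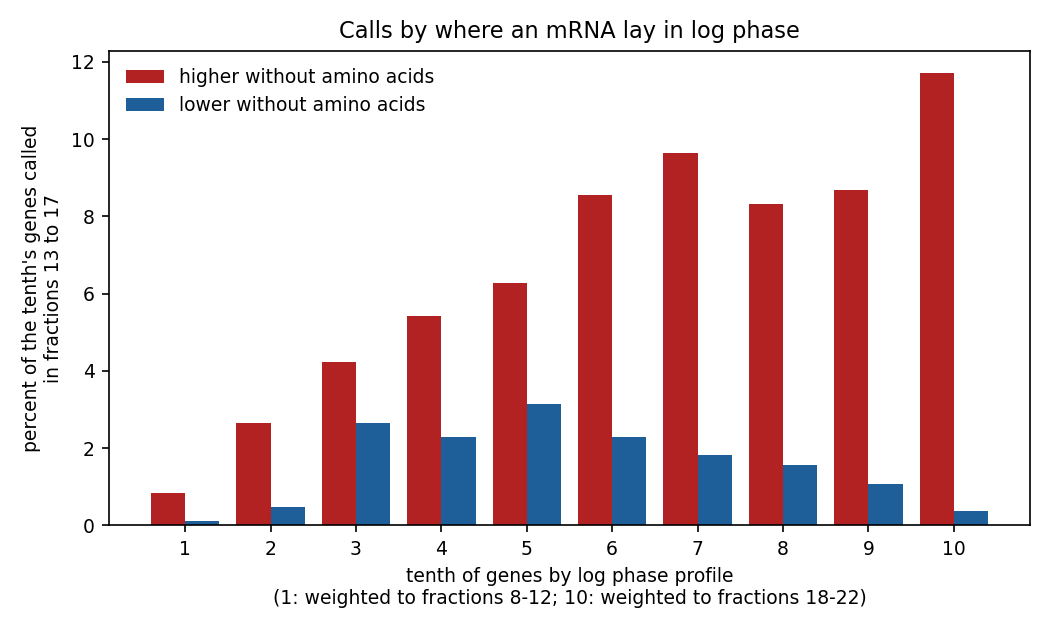
Percent of genes called higher or lower in fractions 13 to 17 (y) in 10 equal bins of genes ordered on log phase signal in fractions 18 to 22 minus fractions 8 to 12 (x). Bars for higher calls reach 11.7% in bin 10, and bars for lower calls peak at 3.13% in bin 5.

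Outside the block, the genes called higher and lower differed in where they departed from log phase. For the 550 genes called higher the median difference was 0.71 in fractions 18 to 22 and 0.13 in fractions 8 to 12, against 0.23 and -0.85 for all genes. A difference of 1 or more was present in fractions 18 to 22 for 144 of them (26.2%), against 6.85% of all genes. For the 131 genes called lower the median was -1.68 in fractions 8 to 12, where 123 (93.9%) were at -1 or less, against 39.1% of all genes, and 0.00 in fractions 18 to 22, where 66 lay above 0 and 65 below. Weighting all fractions equally, the median gene called lower had 38.8% of its signal over fractions 3 to 22 in fractions 13 to 17 in log phase and 28.9% after starvation, and 29.2% and 57.5% in fractions 18 to 22. HNRNPD, for example, had 40.3% in fractions 13 to 17 and 47.4% in fractions 18 to 22 in log phase, and 11.6% and 80.3% after starvation.

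The median gene called higher had 19.4% of its signal inside the block in log phase and 37.6% after starvation, and the median of all genes was 28.4% and 37.5%. GAPDH had 6.83% in fractions 13 to 17 and 79.0% in fractions 18 to 22 in log phase, and 28.2% and 30.2% after starvation. PHGDH had 4.54% and 88.0% in log phase, and 17.0% and 75.7% after starvation. Its difference was also positive in the neighbouring blocks, at 1.74 in fractions 8 to 12 and 1.34 in fractions 18 to 22, whereas that of GAPDH was 3.04 and -0.34. CHAC1 stood at 1.71 and 3.47 in those blocks, so its share was higher on both sides of the block.

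Cells kept without serum for 2 h were compared with the same log phase fractions, so values of the starvations share their control libraries and are given side by side only. In fractions 13 to 17 the median of all genes was -0.05 without serum, with 278 genes higher and 130 lower by the same rule. Of the 550 genes called higher without amino acids, 547 (99.5%) lay above 0 without serum, with a median of 1.03. Of the 131 called lower, 2 (1.53%) lay above 0, with a median of -1.15, against 46.2% above 0 among all genes. Those calls were made against the same log phase libraries, so this likeness is not independent of the shared control. GAPDH stood at 2.45 without serum and 2.99 without amino acids, VIM at 2.41 and 2.98, PHGDH at 2.25 and 2.97, and GRN at 2.58 and 2.90. HNRNPD stood at -2.10 and -2.14, ARF4 at -1.28 and -1.86, and EEF2 at 1.36 and 1.91. List medians without serum and without amino acids were 0.84 and 0.83 for ER chaperones and 1.85 and 2.26 for the HEK293 list. They were -0.61 and -0.70 for SR splicing factors, -0.765 and -0.49 for hnRNP genes, and 0.03 and 0.82 for the ATF4 targets. CHAC1 stood at -0.02 and 3.21, DUSP5 at -0.45 and 2.32, and DDIT4 at 0.37 and 2.00. No test of the difference between the starvations was possible with 1 gradient each.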

How the data were processed

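Poly(A)+ RNA of gradient fractions 3 to 22 of 3 HEK293 gradients was measured, and fractions 13 to 17 of the starved and log phase gradients were analysed. The deposited signal is the authors' table of 1 value per gene symbol and fraction. The submitters' processing notes name kallisto 0.44.0, sleuth 0.29.0 and hg38. The scale of each column and the depth behind it were not given in the sources used here, so no counting error was attached. The 29 ERCC rows and 1 luciferase row were dropped, each column was rescaled to 1000000, and log2(value + 1) was taken for genes with a mean of 5 or more. Luciferase signal equalled between 0.25% and 0.56% of the gene total in log phase fractions and between 0.50% and 0.81% in starved ones. Of 83020 values, 6 were 0.

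With 1 gradient per condition no test was run. The size rule, gene lists and members were chosen with earlier results of these data known. Named genes were the 12 largest differences in each direction past the size rule with a mean of 20 or more, the most abundant and the most extreme called member of each list, and a fixed set of translation and stress genes. Further list members are named because they met the size rule, or were chosen after their values were seen (GOT1, PSAT1, PSPH, TUBB, HSPA5 and SRSF7). The bins by log phase profile were chosen after seeing the data. Planned bins of protein length were not run, for want of a table of lengths. The lysate libraries were not analysed here.

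Alternatives covered the scale, pseudocount, filter, size rule, pairing of fractions and leaving out each fraction. Gene positions and starts come from RefSeq (GRCh38.p14), where 8273 of 8302 tested symbols had an entry and 6945 a promoter. Python 3.11.15, numpy 2.4.6, pandas 2.3.3 and matplotlib 3.10.9 were used, and the size rule was tested on simulated data. The simulation used independent noise in each fraction and no shift of scale between gradients. It therefore does not bear on how the calls depend on scaling.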

Additional observations from a re-analysis of the deposited data

How the results depend on the processing

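With 550 genes higher and 131 lower as the reference, the counts moved with the scale: 292 lower with each fraction centred on its median gene, 96 higher and a median gene of -0.18 with spike-in scaling, 259 lower with TOP mRNAs left out of the totals, and 0 higher, 2084 lower and a median gene of -1.40 on the deposited signal. The 0 and 2084 follow the deposited totals, which were smaller after starvation in each of the 5 fractions. On that signal 10 named genes reversed: EPRS (-0.19), HSP90AB1 (-0.31), HSPA8 (-0.52), MRPL10 (-0.64), PPP1R15A (-0.49), PSMD4 (-0.0092), RACK1 (-0.32), RPL8 (-0.57), TM7SF2 (-0.20) and TSC2 (-0.32). A pseudocount of 5 gave 351 higher and 82 lower, and a minimum mean of 20 gave 294 higher because fewer genes were tested. The size rule gave 834 higher and 286 lower at 1.5-fold, 61 and 1 at 4-fold, and 197 lower with no rule on overlap. Pairing starved fractions 12 to 16 with log phase 13 to 17 gave 245 higher and 266 lower, and 14 to 18 gave 75 lower. Without 1 fraction there were 502 to 898 higher, the highest without fraction 13, and 100 to 209 lower, the highest without fraction 17. Over all settings the named called genes kept their direction and call in 816 values, lost the call in 95 and reversed in 10. For the changes other than those explained above, the cause was not tested. The depth that limits low genes is unknown, and 1 gradient per condition leaves every difference without a replicate check.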
